A study of Mus musculus with 8 samples.

Results

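Integrins are cell-surface receptors, each made of an alpha and a beta chain, that tie cells to the extracellular matrix or to other cells. Laminins are basement-membrane proteins, each a trimer of an alpha, a beta and a gamma chain, and several integrins bind them. The genes described here are those whose symbol follows the pattern of an integrin alpha chain, an integrin beta chain (Itgb1 to Itgb8) or a laminin chain in the platform annotation of the array. They number 36 of the 19938 genes measured under a single symbol: 18 integrin alpha chains, 8 integrin beta chains and 10 laminin chains. Related genes outside the pattern, such as Itgb2l and Itgbl1, are not counted.

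Heart tissue came from 8 male mice whose strain the labels write as CH3. They were 8 to 10 weeks old and weighed 25 to 30 g. In all of them the left anterior descending coronary artery was occluded for 45 minutes and then reopened for 2 hours before the heart was excised. The 4 placebo mice had received PBS 1 hour before ligation, and the 4 DJ-1 mice had received recombinant DJ-1 protein at the same time. The labels name no hearts without ischaemia, so every value is from reperfused myocardium. The gene Park7 encodes DJ-1, which responds to oxidative stress.

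In striated muscle, integrins that contain the beta chain Itgb1, chiefly with Itga7 in the adult, bind laminin around each fibre and link it through talin and vinculin to the sarcomere. Leukocytes use other integrins: those with the beta chain Itgb2 bind ICAM molecules on activated endothelium, which neutrophils do when they enter reperfused heart. These families were therefore set side by side as 8 cardiac integrins (Itgb1, Itga7, Itga6, Itga3, Itga1, Itga5, Itgav and Itgb5) and 8 leukocyte integrins (Itgb2, Itgam, Itgal, Itgax, Itgad, Itga4, Itgb7 and Itgae). The cardiac chains are also made by endothelium, fibroblasts and smooth muscle, and Itga4 is also found outside leukocytes, so the names describe where each chain is best known. In bulk tissue, fewer cells of a type and less RNA per cell cannot be told apart.

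The array medians lay between 5.25 and 5.35, in log2 units of hybridisation signal, and correlations between arrays between 0.978 and 0.987. DJ-1 replicates 3 and 4 lay away from the rest: their scores on principal component 1 were 19.6 and 23.5, while the remaining 6 arrays scored -15.0 to 5.31. Without these arrays the difference between the groups had another sign for 6 of the 36 genes described here, and for 15 more it kept its sign but moved by a factor of over 1.5. All 14 markers of ventricular cardiomyocytes lay above 4.74, the 95th percentile of the 1027 olfactory receptor genes that served as a guide to background. Of all 19938 genes, 13693 lay above it, and so did 33 of the 36 integrin and laminin genes. The exceptions were Itgae, Itgax and Lama1, whose means over 8 arrays lay between 4.31 and 4.67, so their values are close to background. A level on this scale depends on the probes of each gene, so levels are compared between hearts and not between genes. Values for single hearts are listed in the order of replicates 1 to 4.

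In limma's comparison of the groups, 0 of the 36 genes reached the threshold for adjusted p, 0.05, as did 0 of all 19938 genes (0.0%). At an unadjusted limma p under 0.05 there were 3 of the 36, Itgax on the higher side and Itga8 and Itga4 on the lower side, where 5.99% of all genes reached that level (3.63% higher and 2.36% lower). The same 3 genes were those whose levels did not overlap between the groups, against 3.22% of all genes (1.54% higher and 1.68% lower). The median difference (the DJ-1 mean less the placebo mean, in log2 units) was -0.05 over the 36 genes, with 14 positive and 22 negative. It was 0.01 over all genes, of which 52.5% were positive and 47.5% negative. Over the 13693 genes above the olfactory 95th percentile it was -0.01, with 6223 positive and 7470 negative. Of these 13693, 287 were higher and 388 lower at an unadjusted limma p under 0.05. Without overlap, 146 were higher and 300 lower. The count of 3 depended on single hearts. Without placebo replicate 1 it was 6, adding Itgae, Lama3 and Lama4, and without placebo replicate 2 it was also 6, with Itgae, Itga10, Itgb6 and Lama5 added and Itga4 lost.

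**Figure D1:**
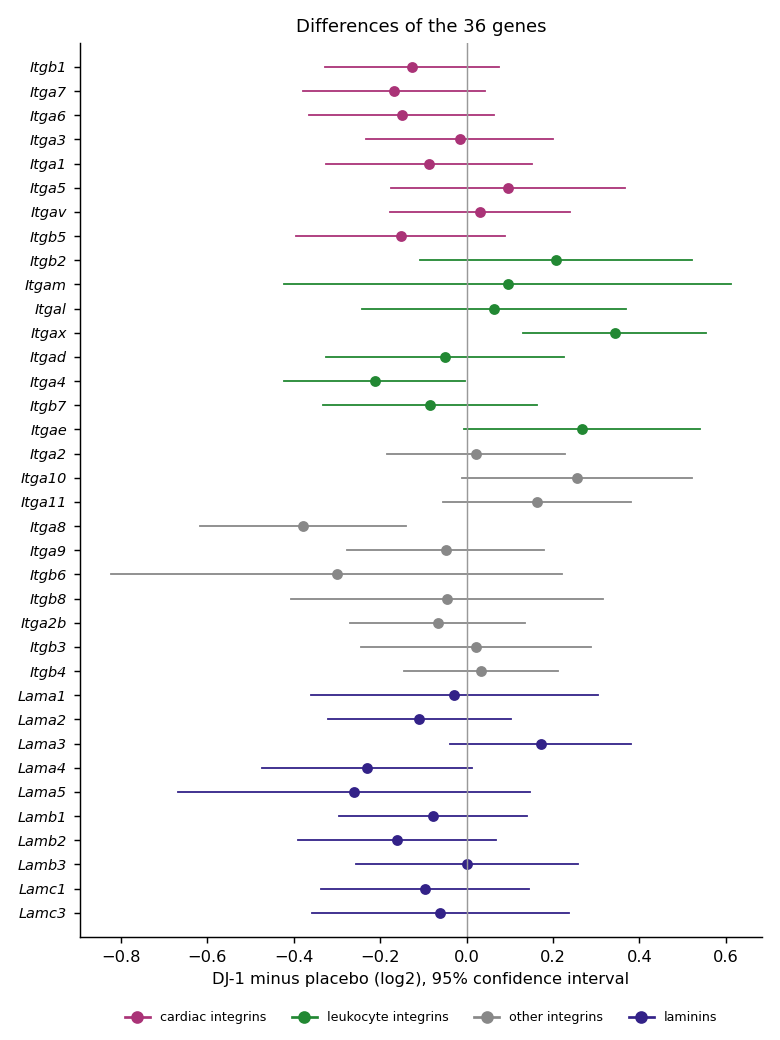
Difference in log2 level, DJ-1 less placebo (horizontal axis), for each of the 36 genes (vertical axis), coloured by role, with the limma estimate as a point and its 95% confidence interval as a line. The intervals of Itgax, Itga4 and Itga8 exclude 0 before adjustment, and all other intervals include it.

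The laminin-binding integrins of muscle had slightly lower means in DJ-1 hearts, with intervals that include 0. Itgb1 encodes the beta chain shared by most matrix receptors of the heart. Itgb1 read 10.15, 10.06, 9.98 and 9.99 in the placebo hearts against 9.95, 10.01, 9.94 and 9.77 in the DJ-1 hearts. Its difference was -0.13 (SE 0.09), with adjusted p = 0.846 in limma, and the groups overlapped, with DJ-1 replicate 4 the lowest. Itga7 encodes the main laminin-binding alpha chain of adult heart and skeletal muscle. Itga7 read 9.06, 8.83, 8.78 and 8.87 in the placebo hearts against 8.81, 8.62, 8.67 and 8.76 in the DJ-1 hearts. Placebo replicate 1 was the highest and DJ-1 replicate 2 the lowest, and the groups overlapped with a difference of -0.17 (95% confidence interval -0.38 to 0.04).

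Itga6 and Itga3 are the other laminin-binding partners of Itgb1, in vessels and epithelia as well as muscle. Itga6 read 8.56, 8.73, 8.64 and 8.55 in the placebo hearts against 8.33, 8.61, 8.56 and 8.39 in the DJ-1 hearts. Itga3 read 6.30, 6.26, 6.15 and 6.27 in the placebo hearts against 6.36, 6.02, 6.21 and 6.31 in the DJ-1 hearts. DJ-1 replicates 1 and 4 lay below every placebo heart for Itga6, which differed by -0.15 (SE 0.10), and Itga3 differed by -0.02 (SE 0.10) with full overlap. The difference of Itga3 was 0.05 without DJ-1 replicate 2.

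Itga1 pairs with Itgb1 as a collagen receptor, and Itga5 pairs with it as the classical fibronectin receptor. Itga1 read 8.41, 8.34, 8.09 and 8.39 in the placebo hearts against 8.29, 8.38, 8.17 and 8.05 in the DJ-1 hearts. Itga5 read 8.69, 8.61, 8.49 and 8.43 in the placebo hearts against 8.40, 8.69, 8.95 and 8.57 in the DJ-1 hearts. The DJ-1 hearts spanned a wider range than the placebo hearts for Itga5, with DJ-1 replicate 3 the highest of all and DJ-1 replicate 1 the lowest. The differences were -0.09 (SE 0.11) for Itga1 and 0.10 (SE 0.12) for Itga5, and the latter was -0.01 without DJ-1 replicate 3.

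Itgav and Itgb5 form a receptor for vitronectin and other ligands that carry the arginine-glycine-aspartate motif. Itgav read 7.42, 7.45, 7.28 and 7.54 in the placebo hearts against 7.38, 7.60, 7.40 and 7.42 in the DJ-1 hearts. Itgb5 read 9.24, 8.89, 8.99 and 9.33 in the placebo hearts against 8.90, 9.05, 8.96 and 8.93 in the DJ-1 hearts. Itgav differed by 0.03 (SE 0.10). For Itgb5 the 4 DJ-1 hearts lay close together while placebo replicates 1 and 4 stood above all of them, and the difference was -0.15 (SE 0.11). Of the 8 cardiac integrins, 6 had a negative and 2 a positive difference, with a median of -0.11 and a range of -0.17 to 0.10. None of the 8 had an unadjusted limma p under 0.05. Their mean difference was -0.07. The 14 ventricular cardiomyocyte markers had a mean difference of -0.07, a median of -0.03 and a range of -0.31 to 0.03, with 11 of 14 negative. Their marker means were -0.05 to 0.12 in placebo and -0.11 to 0.05 in DJ-1 hearts, and their part in the cardiac integrin values was not tested.

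Among the leukocyte integrins, Itgb2 differed little between the groups relative to its wide spread between hearts. Itgb2 encodes the beta chain common to Itgal, Itgam, Itgax and Itgad. Itgb2 read 6.14, 6.31, 5.97 and 5.73 in the placebo hearts against 6.39, 6.46, 6.12 and 6.0 in the DJ-1 hearts. Placebo replicate 4 was the lowest and DJ-1 replicate 2 the highest, the groups overlapped, and the difference was 0.21 (95% confidence interval -0.11 to 0.52) with adjusted p = 0.842 in limma. It was 0.10 with placebo replicate 4 left out and 0.39 when DJ-1 replicates 3 and 4 were dropped.

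Itgam, the alpha chain of the complement receptor of neutrophils and macrophages, varied most of the 16 cardiac and leukocyte integrins, with a within-group SD of 0.434. Itgam read 6.01, 6.01, 5.75 and 5.22 in the placebo hearts against 6.12, 6.37, 5.56 and 5.32 in the DJ-1 hearts. Hearts of both groups were found at either end, and the difference of 0.10 (SE 0.24) became -0.08 with placebo replicate 4 left out, -0.08 with DJ-1 replicate 2 left out and 0.50 with DJ-1 replicates 3 and 4 left out. Itgal, the alpha chain of the ICAM receptor of lymphocytes and other leukocytes, overlapped as well. Itgal read 5.81, 5.74, 5.65 and 5.40 in the placebo hearts against 5.65, 6.10, 5.59 and 5.53 in the DJ-1 hearts. Its difference was 0.06 (SE 0.14), and -0.06 without DJ-1 replicate 2.

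Itgax, the alpha chain known from dendritic cells and macrophages, was the leukocyte integrin with the smallest p. Itgax read 4.45, 4.45, 4.47 and 4.29 in the placebo hearts against 4.89, 4.84, 4.63 and 4.67 in the DJ-1 hearts. All 4 DJ-1 hearts lay above all 4 placebo hearts, although only DJ-1 replicates 1 and 2 exceeded the olfactory 95th percentile. The means were 4.42 ± 0.08 (SD, n = 4) with placebo and 4.76 ± 0.13 (SD, n = 4) with DJ-1. The difference was 0.34 (95% confidence interval 0.13 to 0.55) with adjusted p = 0.824 in limma, so it did not pass. It ran from 0.30 to 0.39 when each array was left out and was 0.45 without DJ-1 replicates 3 and 4.

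Itga4 forms the receptor for VCAM molecules on lymphocytes and monocytes, with Itgb1 or Itgb7. Itga4 read 5.72, 6.002, 5.76 and 5.68 in the placebo hearts against 5.54, 5.57, 5.61 and 5.59 in the DJ-1 hearts. Every DJ-1 heart was below every placebo heart, and the DJ-1 hearts lay closer together than the placebo hearts. The difference was -0.21 (95% confidence interval -0.42 to -0.003) with adjusted p = 0.824 in limma, and -0.14 without placebo replicate 2, the highest heart.

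Itgb7 pairs with Itga4 or with Itgae in lymphocytes of mucosal tissues, and Itgae binds E-cadherin. Itgb7 read 5.33, 5.01, 5.29 and 5.25 in the placebo hearts against 4.96, 5.10, 5.12 and 5.37 in the DJ-1 hearts. Itgae read 4.37, 4.33, 4.001 and 4.001 in the placebo hearts against 4.54, 4.29, 4.30 and 4.63 in the DJ-1 hearts. Both overlapped between the groups, with differences of -0.08 (SE 0.11) for Itgb7 and 0.27 (SE 0.12) for Itgae, the latter below the olfactory 95th percentile in every heart. Itgad is a further partner of Itgb2. Itgad read 6.58, 6.84, 6.53 and 6.55 in the placebo hearts against 6.77, 6.25, 6.63 and 6.64 in the DJ-1 hearts. Its difference was -0.05 (SE 0.13), while a dimmer probe set of the same gene gave 0.16, so the probe sets disagree in sign.

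**Figure D2:**
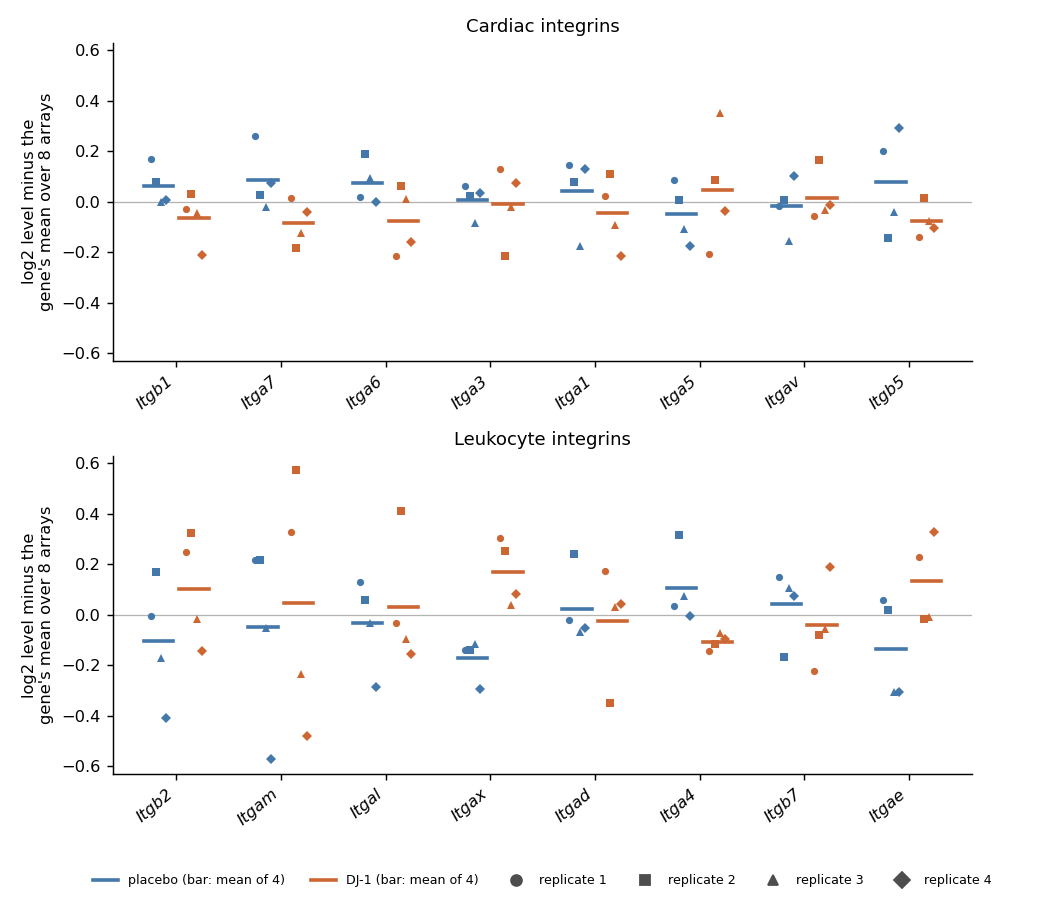
Level of the 8 cardiac and the 8 leukocyte integrins in each heart, as log2 value minus the gene's mean over 8 arrays (vertical axis), with a marker shape for each replicate number and a bar for each group mean. Itgax and Itga4 show no overlap between the groups, and Itgam has the widest spread, from 5.22 to 6.37.

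Set against each other, the cardiac integrins had a mean difference of -0.07 and the leukocyte integrins one of 0.08, where the mean over all genes was 0.02. In each heart, the mean of the 8 leukocyte integrins minus the mean of the 8 cardiac integrins, after centring every gene on its mean, was -0.06, 0.06, -0.01 and -0.29 in the placebo hearts against 0.17, 0.12, -0.05 and 0.06 in the DJ-1 hearts. Placebo replicate 4 was the lowest of the 8 and DJ-1 replicate 1 the highest, and the groups overlapped. The group difference in this value was 0.15, with a within-group SD of 0.125. It was 0.08 without placebo replicate 4, 0.22 with DJ-1 replicates 3 and 4 left out, and 0.08 when Itgax and Itgae were left out as close to background. The leukocyte integrins alone then had a mean difference of 0.00302, and, with all 8 genes, 0.01 without placebo replicate 4, 0.05 without DJ-1 replicate 2, 0.12 without placebo replicate 2 and 0.16 without both DJ-1 replicates 3 and 4. The cardiac mean was -0.05 without placebo replicate 1. Scaling moved these means as well: the leukocyte mean was 0.04 and the cardiac mean -0.11 with each array centred on its median. With cyclic loess they were 0.05 and -0.04, and with quantile normalization 0.05 and -0.05. The families differed in their median spread between hearts of the same group. The median within-group SD was 0.189 for leukocyte integrins, 0.114 for cardiac integrins and 0.167 for all genes. Single genes of the families overlapped, with 0.104 for Itga4 and 0.108 for Itgax against 0.185 for the cardiac Itga5.

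The spread of Itgb2 between hearts followed that of neutrophil markers. The mean of 15 neutrophil markers (among them S100a8, S100a9, Csf3r, Cxcr2 and Ly6g, with no integrin in the list), centred gene by gene, was -0.19, 0.86, -0.57 and -1.49 in the placebo hearts against 0.83, 1.16, -0.10 and -0.51 in the DJ-1 hearts. All 15 had a positive difference and 14 lay above the olfactory 95th percentile, the means ranged over -1.49 to 0.86 in placebo and -0.51 to 1.16 in DJ-1 hearts, and the groups overlapped. Across the 8 hearts, Itgb2 was higher by 0.27 log2 units for each log2 unit of this mean. Pearson r was 0.99 (exact permutation p = 0.000124, adjusted p = 0.00397) and Spearman rho 0.95 (exact permutation p = 0.00114, adjusted p = 0.0365). With the 2 hearts farthest from the median of the marker mean left out (placebo replicate 4 and DJ-1 replicate 2), r was 0.98, and with each group's mean removed it was 0.99. Of the 19938 genes, 2 had an absolute r with the neutrophil mean at least as large, Itgb2 among them (0.01%). The part that neutrophil RNA has in the difference of Itgb2 between the groups was not tested.

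Altogether 32 relations of this kind were computed, 24 for the leukocyte integrins against neutrophil, monocyte and macrophage, and lymphocyte markers and 8 for the cardiac integrins against ventricular cardiomyocyte markers, and p was adjusted over the 32. Itgam also ran with the neutrophil mean. Pearson r was 0.88 (exact permutation p = 0.00551, adjusted p = 0.0587) and Spearman rho 0.79 (exact permutation p = 0.0279, adjusted p = 0.294). Its r was 0.71 without the same 2 hearts. Itgal had a weaker relation. Pearson r was 0.76 (exact permutation p = 0.0244, adjusted p = 0.156) and Spearman rho 0.67 (exact permutation p = 0.0831, adjusted p = 0.332). It rested on those 2 hearts, since r was 0.33 without them. Itgb7 ran the other way. Pearson r was -0.74 (exact permutation p = 0.0411, adjusted p = 0.188) and Spearman rho -0.69 (exact permutation p = 0.0694, adjusted p = 0.317). Without the same 2 hearts r was -0.92.

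The monocyte and macrophage mean gave smaller values for Itgb2. Pearson r was 0.81 (exact permutation p = 0.0154, adjusted p = 0.123) and Spearman rho 0.71 (exact permutation p = 0.0576, adjusted p = 0.307). Without placebo replicate 4 and DJ-1 replicate 1, the hearts farthest from its median, r was 0.60. Itgam had r = 0.75 with the same mean (exact permutation p = 0.038, adjusted p = 0.188). Its Spearman rho was 0.71 (exact permutation p = 0.0576, adjusted p = 0.307), and r was 0.57 without the same hearts. That marker mean ranged over -0.23 to 0.17 in placebo and -0.12 to 0.20 in DJ-1 hearts, and 12 of its 13 measured genes lay above the olfactory 95th percentile. The lymphocyte mean, with 8 of 12 measured genes above that level and a range of -0.08 to 0.12 in placebo and -0.15 to 0.09 in DJ-1 hearts, had r between -0.65 for Itgae and 0.53 for Itga4, and no relation with it passed.

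Of the cardiac integrins, Itgb5 ran with the mean of the 14 ventricular cardiomyocyte markers, which was 0.07, -0.05, 0.01 and 0.12 in the placebo hearts against -0.11, -0.02, 0.05 and -0.07 in the DJ-1 hearts. Pearson r was 0.85 (exact permutation p = 0.00471, adjusted p = 0.0587) and Spearman rho 0.83 (exact permutation p = 0.0154, adjusted p = 0.246). Without placebo replicate 4 and DJ-1 replicate 1, r was 0.71, and with each array centred on its median it was 0.92 and passed (exact permutation, adjusted p = 0.0135). That centring subtracts the same array median from the gene and from the marker mean. The shared term can itself raise r, so the centred values cannot decide whether the relation is stronger. The other 7 cardiac integrins had r between -0.16 for Itga3 and 0.40 for Itgb1, Itga7 included at 0.34. With each array centred on its median their r was also higher for 6 of the 7, at 0.66 for Itgb1, 0.61 for Itga1, 0.56 for Itga7, 0.54 for Itga6, 0.44 for Itgav and 0.05 for Itga3, and none of the 7 passed.

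**Figure D3:**
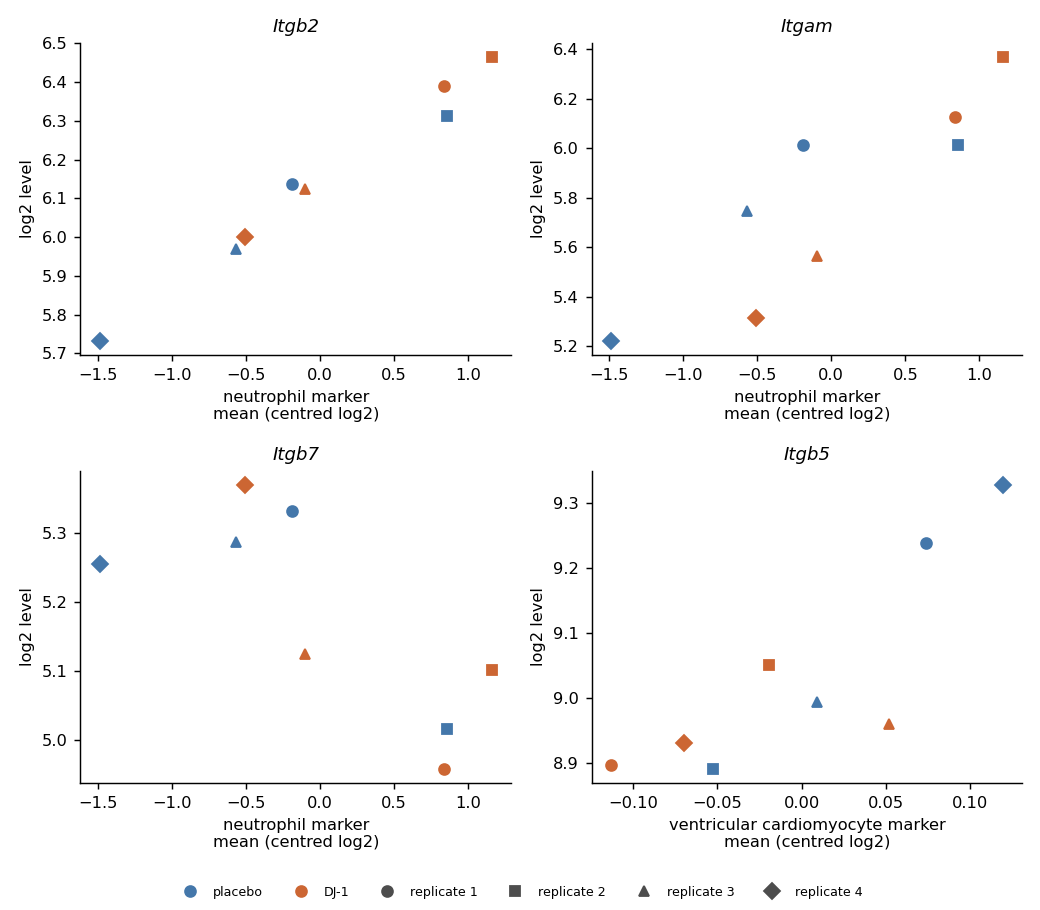
Log2 level (vertical axes) of Itgb2, Itgam and Itgb7 against the neutrophil marker mean, and of Itgb5 against the ventricular cardiomyocyte marker mean (horizontal axes, centred log2 values), with 1 point for each heart. Itgb2 lies close to a line from placebo replicate 4, the lowest heart, to DJ-1 replicate 2, the highest (r = 0.99).

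Promoters are shown for 4 genes with an entry in RefSeq's promoter table. Itgam and Itgb5 had the next smallest p after Itgb2 among the marker relations, without passing (exact permutation, adjusted p = 0.0587 for both). Itgax, the neighbour of Itgam, and Itga8 did not overlap between the groups. Itga4 did not overlap either and has an entry in the promoter table, but its sequence is not shown. In RefSeq's annotation of GRCm38.p6, Itgam, Itgax and Itgad are consecutive protein-coding genes of chromosome 7, and Itgal lies on the same chromosome. Each sequence is the 250 bases before the annotated start of the gene, from RefSeq (GRCm38.p6), 5′ to 3′ on the strand of the gene. Capitals mark GAGGAA, the core bound by PU.1 and other ETS factors of myeloid cells, and GGGCGG, the box bound by SP1, on either strand. The Itgam sequence is chr7:128062390-128062639 on the plus strand, Itgax is chr7:128129300-128129549 (plus), Itgb5 is chr16:33829415-33829664 (plus) and Itga8 is chr2:12301945-12302194 (minus).
Itgam: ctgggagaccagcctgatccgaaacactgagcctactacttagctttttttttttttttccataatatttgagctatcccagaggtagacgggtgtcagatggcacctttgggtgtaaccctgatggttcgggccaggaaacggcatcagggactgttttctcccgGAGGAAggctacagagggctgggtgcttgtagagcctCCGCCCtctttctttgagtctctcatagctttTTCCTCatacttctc
Itgax: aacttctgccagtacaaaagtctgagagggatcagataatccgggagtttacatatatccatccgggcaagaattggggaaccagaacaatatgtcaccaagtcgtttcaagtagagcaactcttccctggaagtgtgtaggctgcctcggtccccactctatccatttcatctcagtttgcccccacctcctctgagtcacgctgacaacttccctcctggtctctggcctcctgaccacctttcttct
Itgb5: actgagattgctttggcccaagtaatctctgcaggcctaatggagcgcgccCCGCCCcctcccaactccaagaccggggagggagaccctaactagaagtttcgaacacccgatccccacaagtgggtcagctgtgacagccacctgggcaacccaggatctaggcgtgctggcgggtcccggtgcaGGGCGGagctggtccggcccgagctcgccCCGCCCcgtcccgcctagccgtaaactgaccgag
Itga8: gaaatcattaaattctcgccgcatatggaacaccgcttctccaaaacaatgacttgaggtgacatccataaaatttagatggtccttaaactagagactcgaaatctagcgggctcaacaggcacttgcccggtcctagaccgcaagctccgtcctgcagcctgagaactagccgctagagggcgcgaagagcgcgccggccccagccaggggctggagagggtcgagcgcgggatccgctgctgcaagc
The Itgam sequence held GAGGAA at 2 places and GGGCGG at 1, and Itgb5 held GGGCGG at 3 places and no GAGGAA. Neither motif occurred in these letters of Itgax or Itga8. For Itga4, at least 1 sequence of the table held GGGCGG and none held GAGGAA. Itgb5 and Itga8 each held 18 CG pairs, against 6 in Itgam, 5 in Itgax and a median of 6 over the 32851 promoter sequences of the table. Of all those sequences 23.3% hold GAGGAA and 32.7% hold GGGCGG. RefSeq's table matched 23 of the 36 genes, of which 13 hold GAGGAA and 8 hold GGGCGG in at least 1 such sequence. These are counts of genes and the percentages are shares of sequences, so the values cannot be compared. The share over all genes was not computed. The motifs do not overlap each other by letter. A match is a description of the sequence and does not show binding.

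Itga8 had the largest negative difference of the 36 genes. It encodes a partner of Itgb1 found on mesenchymal and smooth muscle cells, where it binds nephronectin, fibronectin and other matrix ligands. Itga8 read 6.33, 6.57, 6.77 and 6.50 in the placebo hearts against 6.25, 6.25, 6.08 and 6.07 in the DJ-1 hearts. Every DJ-1 heart was below every placebo heart, and placebo replicate 1 was the nearest to them. The means were 6.54 ± 0.18 (SD, n = 4) with placebo and 6.16 ± 0.10 (SD, n = 4) with DJ-1. The difference was -0.38 (95% confidence interval -0.62 to -0.14) with adjusted p = 0.824 in limma, so it did not pass. It ran from -0.45 to -0.30 when each array was left out and was -0.29 without DJ-1 replicates 3 and 4, which were the lowest hearts. Beside it, 10 of 12 fibroblast markers had a negative difference, with marker means of -0.03 to 0.17 in placebo and -0.14 to 0.01 in DJ-1 hearts, and so had 8 of 10 smooth muscle and pericyte markers, with -0.02 to 0.14 in placebo and -0.13 to 0.08 in DJ-1 hearts. All markers of both lists lay above the olfactory 95th percentile, and their part in the difference of Itga8 was not tested.

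The collagen receptors Itga2, Itga10 and Itga11 and the tenascin receptor Itga9 overlapped between the groups. Itga10, known from cartilage, ranged from 4.99 to 5.42 in placebo and from 5.34 to 5.61 in DJ-1 hearts and differed by 0.25 (SE 0.12). Itga11, known from fibroblasts, differed by 0.16 (SE 0.10), Itga2 by 0.02 (SE 0.09) and Itga9 by -0.05 (SE 0.10). Itgb6, an epithelial partner of Itgav, had the widest spread of the 36 genes, with a within-group SD of 0.439. Itgb6 read 7.98, 7.25, 7.86 and 8.35 in the placebo hearts against 7.04, 7.66, 7.48 and 8.05 in the DJ-1 hearts. Its difference of -0.30 (SE 0.24) was smaller than that spread, and was -0.51 without placebo replicate 2 and -0.13 without DJ-1 replicate 1. Itgb8, which with Itgav activates latent TGF-beta, differed by -0.05 (SE 0.16).

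Itga2b and Itgb3 form the fibrinogen receptor of platelets, and Itgb3 also pairs with Itgav on other cells. Itga2b ranged from 5.73 to 5.93 in placebo and from 5.65 to 5.87 in DJ-1 hearts, with a difference of -0.07 (SE 0.09). Itgb3 differed by 0.02 (SE 0.12). The 6 measured platelet markers all had a positive difference, with marker means of -0.27 to 0.31 in placebo and -0.14 to 0.18 in DJ-1 hearts. Itgb4, the partner of Itga6 in hemidesmosomes of epithelia, was the steadiest gene, with a within-group SD of 0.0346 and a difference of 0.03 (SE 0.08).

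Laminin chains mostly had lower means in DJ-1 hearts, with intervals that include 0. Of the 10 differences 8 were negative, the mean was -0.09 and none had an unadjusted limma p under 0.05. Lama2 encodes the alpha chain of the laminin that surrounds muscle fibres. Lama2 read 9.29, 9.45, 9.23 and 9.46 in the placebo hearts against 9.30, 9.31, 9.28 and 9.10 in the DJ-1 hearts. DJ-1 replicate 4 was the lowest and the groups overlapped, with a difference of -0.11 (95% confidence interval -0.32 to 0.10). Lama4 and Lama5 encode the alpha chains of vessel basement membranes. Lama4 read 8.14, 8.60, 8.45 and 8.44 in the placebo hearts against 8.15, 8.30, 8.19 and 8.06 in the DJ-1 hearts. Placebo replicate 1 read as low as the DJ-1 hearts, and the other 3 placebo hearts lay above all of them. The difference was -0.23 (95% confidence interval -0.47 to 0.01) with adjusted p = 0.824 in limma, and -0.32 without placebo replicate 1.

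Lama5 read 7.96, 6.91, 7.38 and 7.64 in the placebo hearts against 7.09, 7.13, 7.22 and 7.41 in the DJ-1 hearts. Placebo hearts spread over more than 1 log2 unit, from replicate 2 at the bottom to replicate 1 at the top, while the DJ-1 hearts lay closer together. The difference of -0.26 (95% confidence interval -0.67 to 0.15) became -0.45 without placebo replicate 2 and -0.10 without placebo replicate 1. Lama3, an epithelial chain, differed by 0.17 (SE 0.10), and Lama1, an embryonic chain whose level was close to background, by -0.03 (SE 0.15).

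Lamb1 and Lamb2 encode the beta chains found in heart and vessel laminins, Lamb2 also at neuromuscular junctions and in kidney. Lamb1 read 7.65, 7.94, 8.01 and 7.92 in the placebo hearts against 7.82, 7.82, 7.83 and 7.73 in the DJ-1 hearts. Lamb2 read 9.94, 9.67, 9.75 and 9.99 in the placebo hearts against 9.51, 9.67, 9.77 and 9.75 in the DJ-1 hearts. Both overlapped, with differences of -0.08 (SE 0.10) and -0.16 (SE 0.10). Lamb3, an epidermal chain, differed by less than 0.01 (95% confidence interval -0.26 to 0.26). Lamc1 is the gamma chain of most laminins. Lamc1 read 9.07, 9.45, 9.24 and 9.46 in the placebo hearts against 9.26, 9.13, 9.31 and 9.13 in the DJ-1 hearts. Placebo replicate 1 held the lowest of all values, so the groups overlapped fully, with a difference of -0.10 (SE 0.11). Lamc3, a minor gamma chain, differed by -0.06 (SE 0.14).

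In each heart the mean of the 10 laminin chains, centred gene by gene, was 0.03, 0.01, 0.06 and 0.08 in the placebo hearts against -0.09, -0.09, 0.002 and 0.01 in the DJ-1 hearts. DJ-1 replicates 1 and 2 were the lowest of the 8, and DJ-1 replicates 3 and 4 lay near placebo replicate 2, the lowest placebo heart. Without DJ-1 replicates 3 and 4, the mean difference was -0.14 in place of -0.09. Of 12 endothelial markers 7 had a negative difference, with marker means of -0.12 to 0.10 in placebo and -0.12 to 0.04 in DJ-1 hearts, and their part in the laminin values was not tested.

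Values without DJ-1 replicates 3 and 4 are given here for genes of unchanged sign whose difference moved by a factor of over 1.5 and was not yet given that way. Among cardiac integrins the difference was then -0.06 for Itgb1, -0.05 for Itga3 and 0.07 for Itgav. Among leukocyte integrins it was 0.22 for Itgal, -0.19 for Itgb7 and -0.11 for Itgad. These 3 leukocyte chains lay further from 0 without those hearts, and Itgb1 nearer to it. Among the other integrins it was -0.51 for Itgb6, -0.15 for Itga9, -0.12 for Itga2b and 0.02 for Itgb4. Among laminins it was -0.26 for Lama1, -0.24 for Lamb2 and -0.05 for Lama2.

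**Figure D4:**
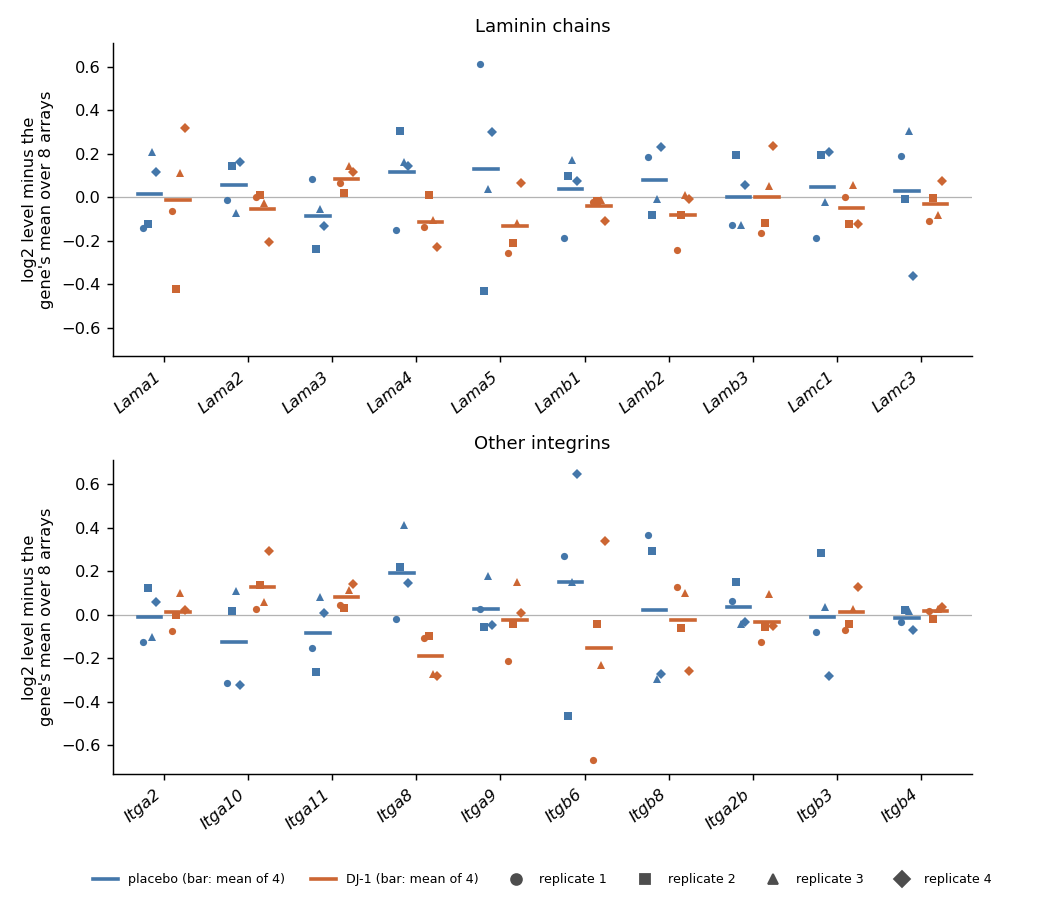
Level of the 10 laminin chains and of the 10 integrins outside the cardiac and leukocyte lists in each heart, as log2 value minus the gene's mean over 8 arrays (vertical axis), with a marker shape for each replicate number and a bar for each group mean. Itga8 is the gene of these 20 without overlap between the groups, and Itgb6 and Lama5 spread most widely.

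The proteins that link integrins to the cytoskeleton were divided between small positive and negative differences. Of 24 measured genes of the adhesion machinery, 13 had a positive and 11 a negative difference, with a median of 0.01, and 0 had an unadjusted limma p under 0.05. The genes of smallest p were Parva, which binds integrin-linked kinase, at -0.17 (SE 0.09), the focal adhesion gene Tns1 at -0.16 (SE 0.09) and the kinase gene Src at 0.13 (SE 0.09). The talin gene Tln1 differed by -0.11, the vinculin gene Vcl by 0.01, and the leukocyte kindlin gene Fermt3 by -0.05.

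Partners of laminin in the basement membrane and other laminin receptors had a median difference of -0.03 over 20 genes, 12 of them negative. Perlecan (Hspg2), the heparan sulfate proteoglycan of basement membranes, did not overlap between the groups, at 9.77 ± 0.05 (SD, n = 4) with placebo and 9.58 ± 0.05 (SD, n = 4) with DJ-1. Its difference was -0.19 (95% confidence interval -0.37 to -0.004) with adjusted p = 0.824 in limma, so it did not pass. The nidogen gene Nid2 differed by -0.14 (SE 0.10) and agrin (Agrn) by -0.14 (SE 0.11). Dystroglycan (Dag1), the main laminin receptor of muscle beside the integrins, differed by -0.09.

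Ligands of leukocyte integrins had a median difference of -0.03 over 15 genes, with 5 positive and 10 negative. Jam3, a junctional ligand of Itgam, differed by -0.37 (SE 0.09) and the fibrinogen gene Fga by 0.36 (SE 0.12), both without overlap but not past the threshold (adjusted p = 0.824 for each in limma). The level of Fga, 4.38 with placebo and 4.74 with DJ-1, was close to background. Madcam1, the mucosal ligand of Itga4 with Itgb7, differed by 0.32 (SE 0.15). Icam1, the endothelial ligand of Itgal and Itgam, stood at 8.32 ± 0.68 (SD, n = 4) with placebo and 8.81 ± 1.06 (SD, n = 4) with DJ-1, a difference smaller than the spread between hearts. Vcam1, the ligand of Itga4, differed by 0.14 (SE 0.33). Of 10 matrix ligands of integrins that bind the arginine-glycine-aspartate motif, 7 had a positive difference, and the median was 0.02. The ligand of Itga8, nephronectin (Npnt), differed by 0.20 (SE 0.10) without overlap between the groups and did not pass (adjusted p = 0.824 in limma). Tgfb3 differed by -0.16 and Edil3, whose level was close to background, by 0.15.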

How the data were processed

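The authors deposited log2 values, 1 per probe set and array (35556 probe sets, 4 placebo and 4 DJ-1 arrays of the Affymetrix whole-transcript type). Per the submitters' processing notes, RMA (robust multichip averaging) produced them. The sources used here do not give its version, its settings or the annotation build. As usually run, RMA corrects background and applies quantile normalization, so a shift shared by all probes of an array is removed. Per the labels' protocols, 100 ng of total RNA with an integrity number above 7 was amplified.

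Gene names came from the platform annotation: 21789 probe sets had 1 symbol, 1621 several and 12146 none. The probe set of highest mean was taken for each gene, giving 19938 genes. The 36 members had 37 probe sets, and 3 more that name Itgam beside another gene were left out. All 36 Entrez identifiers were found in RefSeq's gene table, with 0 symbols changed.

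Each gene was fitted in limma 3.58.1 under R 4.3.3 with lmFit and eBayes, treatment being the only term, and two-sided p-values were adjusted by Benjamini-Hochberg over the 19938 genes. The fit was tested on simulated data with changes larger than any difference among the members, so changes as small as theirs were not tried. The labels do not say how the mice were assigned, and sample codes run through placebo and then DJ-1, so an order of processing and the treatment cannot be told apart. Replicates were taken as separate mice, and p-values measure the spread between these samples. The number of arrays limits the precision. No 2 arrays held identical values (0 pairs).

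Correlations used exact permutation over the 8 arrays, two-sided. Marker means are means of log2 values after centring each gene on its mean over 8 arrays. Values per array are given for cardiac and leukocyte integrins, for other members at an unadjusted p under 0.05 or without overlap, for Lama2, Lama4, Lama5, Lamb1, Lamb2 and Lamc1 and, chosen after its values were seen, for Itgb6. In each pathway list the 3 genes of smallest p are named, and Tln1, Vcl, Fermt3, Dag1, Icam1 and Vcam1 were added for their role. Members and lists were chosen with earlier results of these data known, and the promoter motifs after these values were seen. Alternatives were 3 scalings, a filter on low values, the mean of all probe sets, an intensity trend, robust variances, a replicate block, and leaving out arrays.

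Same-numbered samples did not deviate together in every pair (correlations of deviations from the group means 0.00452, 0.171, 0.177 and 0.00808), so the numbers were not taken to pair the mice.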

Additional observations from a re-analysis of the deposited data

Results flagged for a closer look

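In 72 groups of 4 hearts (each of the 36 genes in each group), 3 had a heart far from the other 3, where chance flags about 1 in 20. Itgad read 6.84 in placebo replicate 2, against 6.53 to 6.58 in the other placebo hearts. Itgax read 4.29 in placebo replicate 4, against 4.45 to 4.47 in the other placebo hearts. Lamb1 read 7.73 in DJ-1 replicate 4, against 7.82 to 7.83 in the other DJ-1 hearts.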

How the results depend on the processing

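Under 17 other settings, 0 of the 36 genes passed an adjusted p of 0.05 in limma. Of the 36, 21 kept the sign of their difference in every setting that gave a value. Itga8, Itga4 and Itgb2 did so in all 17 and Itgax in 16, since the filter on low values removes Itgax, Itgae and Lama1. The intensity trend, robust variances, the replicate block and the filter cannot change the difference of a gene. The mean of all probe sets can change only that of Itgad. The sign under these settings was therefore fixed in advance, apart from Itgad. Over all genes the count past the threshold was between 0 and 1 with each array left out, the 1 being Pramel27 without DJ-1 replicate 3. The count of members at an unadjusted p under 0.05 was between 2 and 6 with each array left out. With the replicate number as a block (replicate block) it was 2 in place of 3, 0 members passed, and 1 of 8 arrays correlated best with the array of its own number. The laminin mean was -0.14 without DJ-1 replicates 3 and 4. With each array centred on its median, 2 correlations passed in place of 1, Itgb5 with cardiomyocyte markers being added, and the median difference over all genes was -0.0341 in place of 0.0082. For the correlations the same median was subtracted from the gene and the marker mean, which can itself raise r. Correlations over 6 arrays are given without a test.

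The sign changed only for genes with a difference between -0.09 (Itga1) and 0.10 (Itga5), and the cause was not tested. Not all genes in that range changed sign, since Itgb7 and Lamb1 kept theirs. Values for the genes that changed follow. With each array centred on its median the values were -0.0204 for Itga2, -0.0107 for Itgav, -0.0211 for Itgb3, -0.00971 for Itgb4 and -0.0408 for Lamb3. Without DJ-1 replicates 3 and 4 they were 0.022 for Itga1, -0.0268 for Itga2, -0.0139 for Itga5, -0.0452 for Itgb3, 0.0114 for Itgb8 and -0.14 for Lamb3. Lamb3 was -0.0039 with cyclic loess and -0.0019 with quantile normalization, and Itgad was 0.054 with the mean of its probe sets. With each array left out the ranges were Itga2 -0.0162 to 0.0673, Itga3 -0.0617 to 0.0528, Itga5 -0.00556 to 0.18, Itga9 -0.11 to 0.0136, Itgad -0.12 to 0.0579, Itgal -0.0634 to 0.13, Itgam -0.0801 to 0.27, Itgav -0.0178 to 0.0704, Itgb3 -0.0698 to 0.12, Itgb8 -0.15 to 0.0693, Lama1 -0.14 to 0.11, Lamb3 -0.0761 to 0.0666 and Lamc3 -0.19 to 0.0304.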

Other observations

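Chains that join into one receptor were compared across the 8 hearts, after the values were seen, for 24 known pairings of an alpha with a beta integrin chain. Pearson r was positive for 13 and negative for 11 of them, with a median of 0.11, against a median of 0.003 over all 630 pairs of the 36 genes. With Itgam, the leukocyte beta chain Itgb2 had r = 0.90 (exact permutation p = 0.00308) and rho = 0.90 (exact permutation p = 0.00456), with r = 0.83 without the 2 arrays farthest from the median of the alpha chain. With Itgal it had r = 0.79 (exact permutation p = 0.0192) and rho = 0.71 (exact permutation p = 0.0576), with r = 0.37 without the 2 arrays farthest from the median of the alpha chain. With Itgax it had r = 0.74 (exact permutation p = 0.0382) and rho = 0.60 (exact permutation p = 0.132), with r = 0.38 without the 2 arrays farthest from the median of the alpha chain. The last 2 relations rested on those hearts, and with Itgad Itgb2 had r = -0.004. For Itgb1 r was 0.77 with Itga1, 0.59 with Itga6, 0.54 with Itga7, 0.10 with Itga5, -0.15 with Itga3, and -0.77 with Itga11, the lowest of the 24. For Itgb7 it was -0.07 with Itga4 and -0.16 with Itgae.

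Of all 630 pairs, 49 (7.78%) had an exact permutation p under 0.05, 27 of them positive, and 6 of the 24 receptors were among the 49. Among those 6, r was negative for Itgb1 with Itga10 (-0.705) and with Itga11 (-0.77), and positive for the rest. After adjustment over the 630 pairs 0 passed, the smallest adjusted p being 0.333 (exact permutation), so these values describe the 8 hearts. Among laminin pairs picked for their size, Lama4 and Lamb1 had r = 0.83 (exact permutation p = 0.00992) and rho = 0.93 (exact permutation p = 0.00223), with r = 0.77 without the 2 arrays farthest from the median of the first gene. Lama3 and Lama4, an epithelial and a vessel chain, had the smallest p of all pairs, with r = -0.94 (exact permutation p = 0.000794) and rho = -0.83 (exact permutation p = 0.0154), with r = -0.87 without the 2 arrays farthest from the median of the first gene. Lama2 had r = 0.20 with Lamb2 and r = 0.41 with Lamb1, its beta chain partners in muscle laminins.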
